A study of Drosophila melanogaster with 24 samples.

Results

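The antimicrobial peptides controlled by the Imd pathway were followed in adult flies and larvae of Drosophila melanogaster populations selected for life in high O2 and of control populations. Imd is one of the innate immune pathways of the fly. Peptidoglycan of mainly Gram-negative bacteria is bound by recognition proteins such as PGRP-LC and PGRP-LE, the signal passes through the adaptor imd, the caspase Dredd and a kinase complex, and the NF-kappaB factor Relish (Rel) then turns on genes for secreted peptides in the fat body, blood cells and gut. Diptericin is the usual readout of this pathway, and attacins, cecropins, Drosocin and Defensin are further targets, some of which also respond to the Toll pathway.

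The members were chosen by gene symbol: AttA, AttC, AttD, DptB, CecB, CecC, Def and Dro, and the probe set read by both AttA and AttB. They made up 9 of the 18769 probe sets tested and stood for 8 genes. The platform annotation named 4 of them, namely DptB (1638235_at), AttD (1631475_at), CecB (1626530_at) and Def (1634271_at). The other 5, AttA (1625124_at), AttA/AttB (1627551_s_at), AttC (1641419_at), CecC (1632719_at) and Dro (1631697_at), had a name only through the study's own list of changed probe sets. All 9 members were on that list, which the study chose on these adult arrays, so the comparison of selected with control adults below is a description of genes picked for that difference and not independent evidence of it. The same holds for the interaction of selection and stage, which contains that difference. The comparison of control adults with control larvae uses the same control adults, so a choice of genes that were low in them bears on it as well. Its counts are given as a description. The comparison of selected adults with selected larvae likewise uses the selected adults, in which these genes were high, so its counts are a description too. Of related genes, DptA, CecA1, CecA2 and AttB had no probe set named for them alone. In the Release 6 gene order, Dro, AttA and AttB were neighbours, CecB lay between CecA2 and CecC, and DptB lay next to DptA. AttA and AttA/AttB share a target and were not counted as separate genes.

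RNA of whole animals was hybridised to Affymetrix Drosophila Genome 2.0 arrays. The 24 arrays fell into 4 groups of 6: selected adults, control adults, selected larvae and control larvae of the third instar. Each group held 3 populations (H1 to H3 selected, C1 to C3 control) with 2 arrays each, and the sources used here do not say whether the 2 arrays of a population came from separate animals. All populations went back to 27 intercrossed isogenic lines. Selected adults were taken from a 90% O2 chamber and control adults from room air (21% O2), so selection and the O2 level at collection cannot be told apart. The sources used here give neither the O2 level of the larvae nor the age of the adults. For each adult sample, 25 males and 25 females were pooled. Values are signals on a linear scale, scaled to a common level, with an array median between 401.6 and 685.2. Differences are given as log2 of tested over reference signal from limma, in which the population was fitted as a random block. A probe set was called at a Benjamini-Hochberg adjusted p under 0.05 over all 18769 probe sets. In whole animals, fewer cells of a type and less RNA per cell cannot be told apart. Labelled stages matched their markers. All 4 measured adult genes (Yp1, Yp2, Yp3 and Act88F) were higher in adults, in selected and control populations alike. All 5 measured larval genes (Lsp1beta, Lsp2, Sgs3, Sgs4 and Sgs5) were lower in adults in both. The genes ninaE, Lsp1alpha and Lsp1gamma were not measured under those names. Act88F and Lsp1beta were also called lower in selected than in control adults (log2 difference -2.70 and -2.18, adjusted p = 0.00845 and 0.0424 from limma). The other measured markers of these lists were not called between selected and control adults.

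Within control populations, adults held less of most members than larvae did. DptB, the second diptericin gene, had signals of 483, 673, 539, 382, 260.3 and 624 in control adults, against 20548, 32979, 10940.5, 10265, 22314 and 17619 in control larvae. Every adult array lay below every larval array. The log2 difference of adults from larvae was -5.23 (SE 0.85, 95% interval -6.98 to -3.47, adjusted p = 1.31e-05 from limma), or 37.4-fold lower in adults. CecC, a cecropin, had signals of 53.7, 134, 11.3, 12.1, 25.2 and 30.4 in control adults and of 2269, 2004, 441, 602, 805 and 1527 in control larvae. Its log2 difference was -5.15 (SE 0.88, adjusted p = 2.49e-05). On 5 of the 6 control adult arrays CecC had a percentile of 14.3 or less among the signals of its array, near the bottom of the scale, and with every value raised to at least the 20th percentile the difference was -3.47 (adjusted p = 0.000277). AttD, an attacin thought to stay inside the cell, had signals of 294, 527, 197, 120.1, 147 and 289 in control adults and of 3636, 4344, 3842, 3269, 4204 and 5683 in control larvae. The groups did not overlap, and the log2 difference was -4.14 (SE 0.63, adjusted p = 5.68e-06).

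The remaining attacins and CecB differed less between the stages. AttA had signals of 800.0, 1081, 588, 387, 442 and 916 in control adults and of 4878, 5186, 2132, 1429, 2805 and 3801 in control larvae. Its groups did not overlap either, and the log2 difference was -2.22 (SE 0.83, adjusted p = 0.0278). The probe set shared by AttA and AttB spanned 64.1 to 1873 in control adults and 1525 to 8293 in control larvae, a log2 difference of -2.88 (SE 1.09, adjusted p = 0.0315). AttC overlapped between the stages, at 749 to 1902 in control adults and 1466 to 20108 in control larvae, of which both C2 arrays (1466 and 1848) were the lowest. Its log2 difference was -2.07 (SE 0.85, adjusted p = 0.0457). CecB averaged 563 ± 143 in control adults and 1526 ± 799.8 in control larvae (SD, n = 6 arrays each), a log2 difference of -1.30 (SE 0.40, adjusted p = 0.00865). Drosocin (Dro), a proline-rich peptide, averaged 273 ± 179 in control adults and 463 ± 174 in control larvae (SD, n = 6 arrays each). Its log2 difference of -1.13 did not pass the test (SE 0.76, adjusted p = 0.235).

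Defensin (Def), a cysteine-rich peptide active mainly against Gram-positive bacteria, ran the other way. It had signals of 2990.5, 3114, 2884, 2667, 3333 and 4312 in control adults, against 753, 455, 602, 1069, 535 and 1630.1 in control larvae. All adult arrays lay above all larval arrays, and the log2 difference was 2.06 (SE 0.59, 95% interval 0.83 to 3.30, adjusted p = 0.00530). So in control populations 7 of the 9 members were called lower in adults, 1 was called higher and 1 was not called. Over all probe sets 22.1% were called lower in adults in the same comparison. Since 4 of the 7 (CecC and the attacins other than AttD) had a name only through the study's list, nothing is read from the count about peptides in general. The median log2 difference of the members was -2.22, beside 0.09 over all probe sets. For 4 members (DptB, AttA, AttD and CecC) the control adults lay wholly below the control larvae, which held for 15.5% of all probe sets, and the order of Def held for 22.5%. Without control population C1 the count of called members was 3 (DptB, AttD and CecC), without C2 it was 6 and without C3 it was 5. With a block for each population and stage, an alternative chosen after seeing the data, it was 5, and AttA, AttA/AttB and AttC were lost (adjusted p = 0.0554, 0.0603 and 0.0805). The fat body genes moved with the stage as well. All 5 measured markers (Fbp1, Fbp2, apolpp, Lsd-1 and bmm) were called lower in control adults than in control larvae. The larval genes Fbp1 and Fbp2 differed by -9.33 and -11.74 on the log2 scale. Lsd-1 differed by -1.775, bmm by -0.48 and apolpp by -0.41. The summed signal was 88934 to 110836 in control adults and 267261 to 389536 in control larvae. That gap rests largely on Fbp1 and Fbp2 and is no measure of the amount of fat body. Of 7 blood cell markers, 6 were called lower and srp higher in adults, with sums of 11161 to 13595 in control adults and of 31653 to 40924 in control larvae. Of 5 midgut markers 3 were called lower in adults, with sums of 321590.3 to 408621 in control adults and of 417944 to 501365 in control larvae. In selected populations the same markers were lower in adults too, namely 4 of 5 in the fat body, 6 of 7 in blood cells and 4 of 5 in the midgut, with blood cell sums of 8233 to 12928 in selected adults and of 24957 to 32212 in selected larvae. Their part in the stage difference was not tested.

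**Figure D1:**
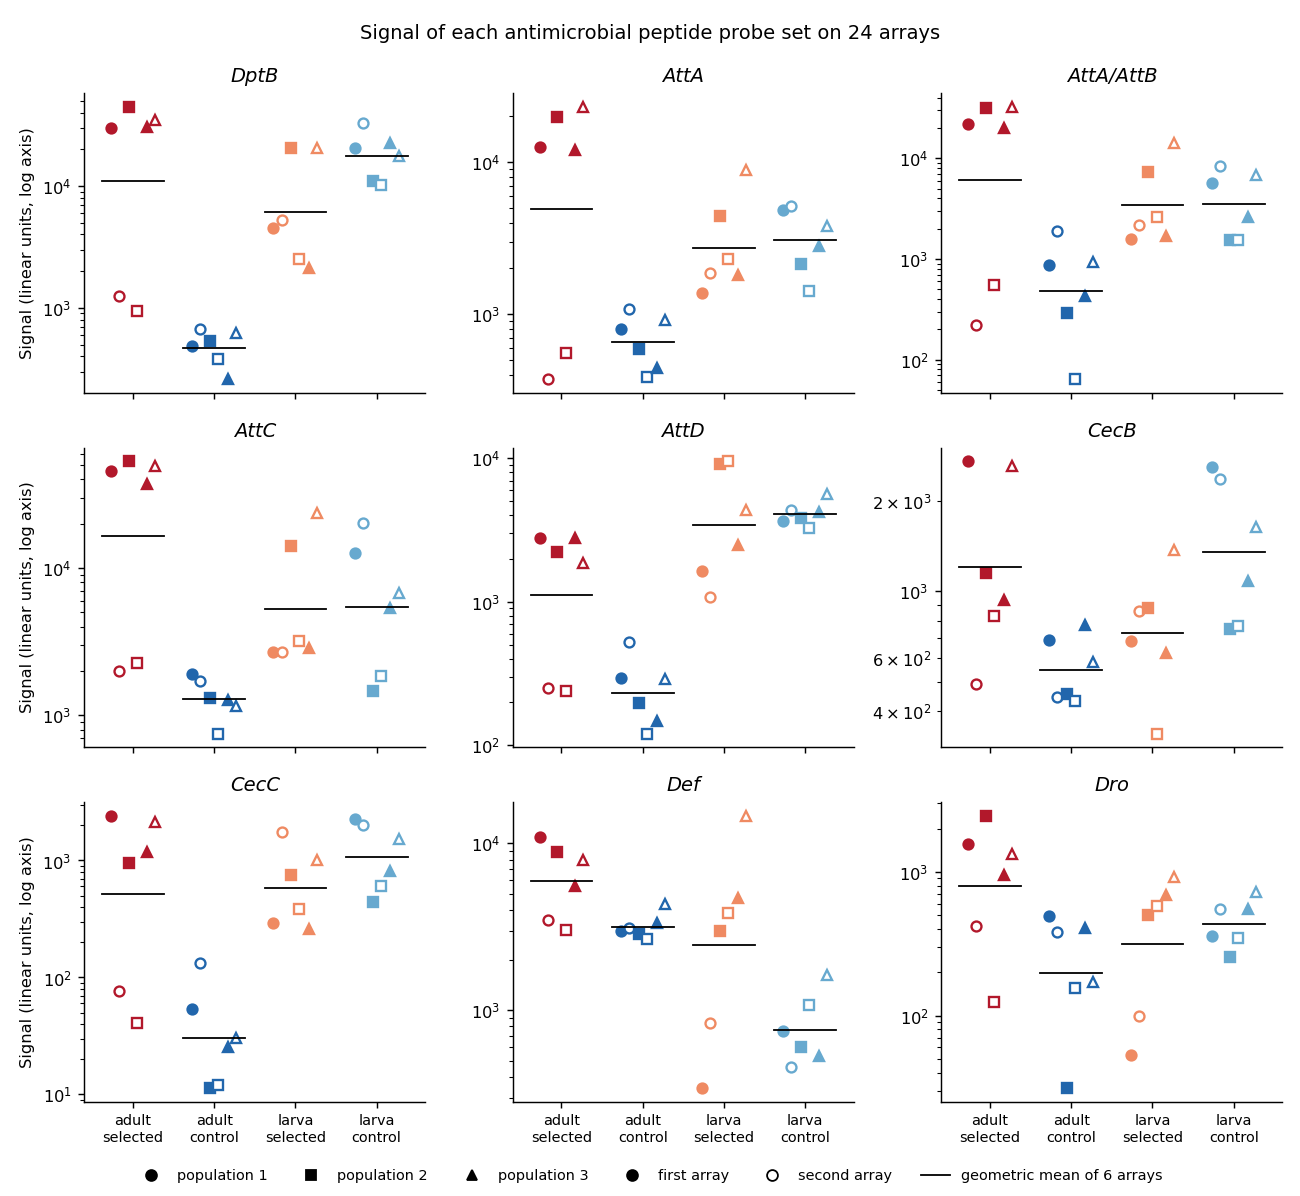
Signal of each member (linear units on a log axis) on the 6 arrays of each group; shapes mark the populations 1 to 3, filled points the first and open points the second array of a population, and bars the geometric mean. In selected adults the second arrays of populations 1 and 2 sit below the other 4 arrays, far below for most members and least so for CecB and Def. In controls 8 of 9 members have a lower mean in adults than in larvae, Def being the exception.

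In the selected populations most members were not called between the stages. DptB had signals of 30029.9 and 1245 on the arrays of H1 adults, 44732 and 941 on those of H2 and 30364 and 34694 on those of H3, against 4561 and 5249.6, 20472 and 2533, and 2117 and 20623 in the larvae of the same populations. Adults of selected populations thus held both the brightest and the dimmest of these 12 arrays, and the log2 difference was 0.82 (SE 0.85, 95% interval -0.94 to 2.58, adjusted p = 0.445). CecC spanned 41.0 to 2415 in selected adults and 259.6 to 1739.7 in selected larvae, a log2 difference of -0.18 (95% interval -2.0 to 1.64, adjusted p = 0.885). The interval of CecC is wide enough to hold a change of over 2-fold in either direction, and that of DptB one of over 2-fold higher.

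AttD alone was called between the stages of selected populations. It had signals of 2793, 250.2, 2223, 237, 2793 and 1868 in selected adults and of 1629, 1075, 9084, 9555, 2480.5 and 4394 in selected larvae. The log2 difference was -1.63 (SE 0.63, adjusted p = 0.0338), the groups overlapped, and the call was lost without selected population H2 (-0.60, adjusted p = 0.459) and with a block for each population and stage (adjusted p = 0.0568). AttA, AttA/AttB and AttC had log2 differences of 0.85, 0.85 and 1.64, CecB had 0.73, Dro had 1.34 and Def had 1.27, none called (adjusted p between 0.0785 and 0.547). These values turned with the array used. With the first array of each population alone, 5 members were called, all higher in adults. They were DptB (2.56), AttA (2.70), AttA/AttB (3.15), AttC (3.23) and Def (2.26). These first arrays are all among the 4 adult arrays brightest for every member. The share of all probe sets called with them is not given here, so nothing is read from that count. With the second arrays alone AttD was called (-2.89, adjusted p = 0.0295), and DptB was -0.92, AttA -1.0, AttA/AttB -1.45 and CecC -2.21, the direction seen in control populations. With all arrays the count was 1 of 9 members, in a comparison that called 53.6% of all probe sets. The study's list was drawn from the same selected adults. Nothing is read from this count, nor from the median and the counts by population that follow. The median log2 difference of the members was 0.85, beside 0.30 over all probe sets. Taken by population, DptB was lower in adults than in larvae in 1 of 3 selected populations and in 3 of 3 control populations, and AttA, AttC, CecB and Dro in 0 of 3 selected and 3 of 3 control populations. AttD was lower in adults in 3 of 3 selected populations, CecC in 2 of 3 and AttA/AttB in 1 of 3, and each in 3 of 3 control populations. Def was lower in adults in 1 of 3 selected populations and in 0 of 3 control populations.

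**Figure D2:**
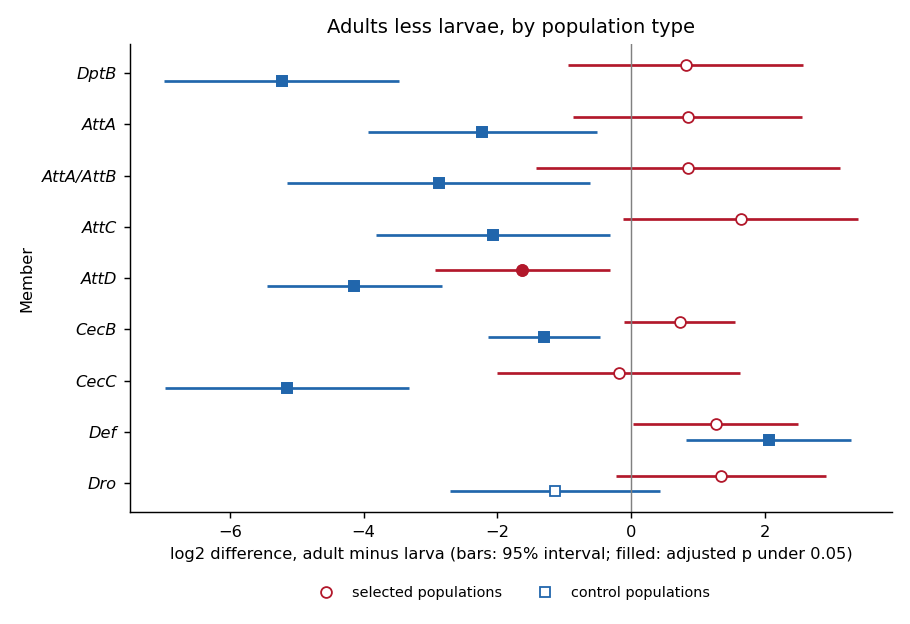
Log2 difference of adults from larvae for each member in selected (circles) and control populations (squares), with the 95% interval from limma; filled symbols passed an adjusted p of 0.05. In controls 7 members lie below 0 and are called and Def is called above 0, while in selected populations AttD alone is called and the other intervals, except that of Def, include 0.

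Among adults, every member had a higher mean signal in selected than in control populations, with a wide spread. For DptB, the selected signals given above compare with 260.3 to 673 in control adults, and all 6 selected arrays exceeded all control arrays, though the second arrays of H1 and H2 lay near the control maximum. The log2 difference was 4.53 (SE 1.12, 95% interval 2.08 to 6.98, adjusted p = 0.143). AttC had signals of 45529 and 2005 in H1, 53307 and 2271 in H2 and 37044 and 49402 in H3, against 749 to 1902 in control adults. Its arrays did not overlap between the groups either, and the log2 difference was 3.67 (SE 0.99, adjusted p = 0.176). Such separation of all 6 selected from all 6 control arrays was seen for these 2 members and for 0.852% of all probe sets.

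AttA had signals of 12676 and 374 in H1, 19910.0 and 554 in H2 and 12015 and 23200.1 in H3 adults, against 387 to 1081 in control adults. AttA/AttB had 21731 and 222, 31389 and 548, and 19933 and 32479 in the same selected populations, against 64.1 to 1873 in control adults. On 4 arrays both attacin probe sets were far above the highest control signal, and on the second arrays of H1 and H2 they lay within or below the control range. CecC had signals of 2415 and 76.7, 945 and 41.0, and 1188 and 2149 in selected adults, against 11.3 to 134 in control adults, and its log2 difference of 4.09 (SE 1.19, adjusted p = 0.210) was 2.64 with values raised to the 20th percentile. CecB spanned 493 to 2702 in selected and 433 to 772 in control adults, with 5 of 6 selected arrays above every control array. Def had 10891 and 3468, 8889 and 3008, and 5518 and 7959.9 in selected adults, against 2667 to 4312 in control adults, and the smallest log2 difference of the members at 0.91 (SE 0.35, adjusted p = 0.354). Dro spanned 124 to 2462 in selected and 31.2 to 492 in control adults, and AttD spanned 237 to 2793 in selected and 120.1 to 527 in control adults. Each had 4 selected arrays above the control range and 2 within it.

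None of the 9 members was called between selected and control adults, where 0.357% of all probe sets were called in either direction. At an unadjusted p under 0.05, 9 of 9 were higher, against 5.37% of all probe sets. Since the study's list was drawn from this contrast, nothing is read from these counts. The median log2 difference of the members was 2.91, beside 0.06 over all probe sets. Averaged over the 2 arrays, the 3 selected populations lay above the 3 control populations for 9 of 9 members, as for 9.09% of all probe sets; an exact permutation test of 3 against 3 populations cannot give a two-sided p under 0.1, and gave 0.1 for each. With the first arrays of each population alone, 3 members passed, among 6 of all 18769 probe sets. These were DptB with a log2 difference of 6.40, AttC with 4.93 and AttA with 4.61. The first arrays of H1, H2 and H3 are all among the 4 adult arrays brightest for every member. With the second arrays alone none passed (2.66, 2.41 and 1.22). When all 24 arrays shared 1 estimate of the spread, 3 members passed, among 280 of all probe sets. Their adjusted p from limma was 0.00960 for DptB, 0.0259 for CecC and 0.0387 for AttC.

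**Figure D3:**
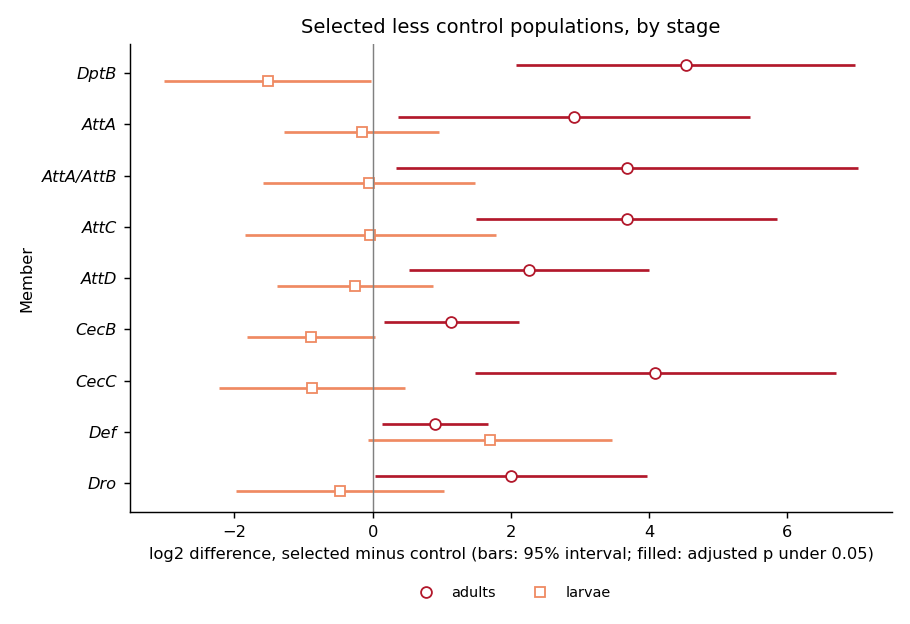
Log2 difference of selected from control populations for each member in adults (circles) and larvae (squares), with the 95% interval from limma; no symbol is filled because none passed an adjusted p of 0.05. All 9 adult values lie above 0, from 0.91 for Def to 4.53 for DptB, and 8 of 9 larval values lie below 0, with Def at 1.70.

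The spread among selected adults was shared by the members. For 9 of 9 members the same 4 adult arrays were the brightest: both arrays of H3 and the first arrays of H1 and H2. Between the 2 arrays of H1 the members differed by a median of 22.7-fold, with a range of 3.14-fold to 98.1-fold, and the first was the brighter for 9 of 9. Between those of H2 the median was 23.0-fold (1.40-fold to 57.2-fold), again with the first brighter for 9 of 9. The 2 arrays of H3 differed by a median of 1.49-fold, and those of the control populations by 1.39-fold in C1, 1.52-fold in C2 and 1.96-fold in C3. In H1, 7 of 9 members were over 4-fold apart between the 2 arrays, against 8.11% of all probe sets, and in H2, 7 of 9 were, against 10.2%. These members are genes that rise and fall together, so they do not count as separate cases. Over all probe sets the median absolute log2 difference between the 2 arrays was 0.28 in H1, 0.50 in H2 and 0.30 in H3, and 0.26, 0.38 and 0.41 in C1, C2 and C3. H1 therefore stood within the range of the other populations, and H2 was the highest.

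Summed markers of other tissues on the same arrays did not all follow the peptides. The 5 measured midgut genes (Jon99Ci, Jon65Aiii, alphaTry, betaTry and LManII) had a summed signal of 227219 and 195977 on the arrays of H1, 435026 and 255915 on those of H2 and 408319 and 414088 on those of H3, against 321590.3 to 408621 in control adults. The sum was low on the second arrays of H1 and H2, where the peptides were low too, and also low on the first array of H1, where they were high. The 5 measured stress and wounding genes summed to 93813 to 112359 in selected and 103358 to 141980 in control adults. Most of it was Hsp26, at 82784 to 96863 in selected and 81287 to 106727 in control adults. TotA spanned 6263 to 10726 in selected and 12104 to 27039 in control adults, without overlap. The log2 differences were -0.98 for TotA, -0.81 for TotC, -0.35 for Gadd45, -0.04 for puc and 0.02 for Hsp26, none called. Blood cell markers summed to 8233 to 12928 in selected and 11161 to 13595 in control adults. Fat body markers summed to 99357 to 116231 in selected and 88934 to 110836 in control adults. Most of that sum was apolpp, at 84569 to 100591 in selected and 70306 to 90888.5 in control adults. The 2 defining larval fat body genes, Fbp1 and Fbp2, had at most 319.9 on every adult array. Of the 5 fat body markers only Lsd-1 was called between selected and control adults, as lower in selected adults. It spanned 4119 to 5410 in selected and 8206 to 12937 in control adults (log2 difference -1.14, adjusted p = 0.00722 from limma). The part of these tissues in the adult difference was not tested.

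**Figure D4:**
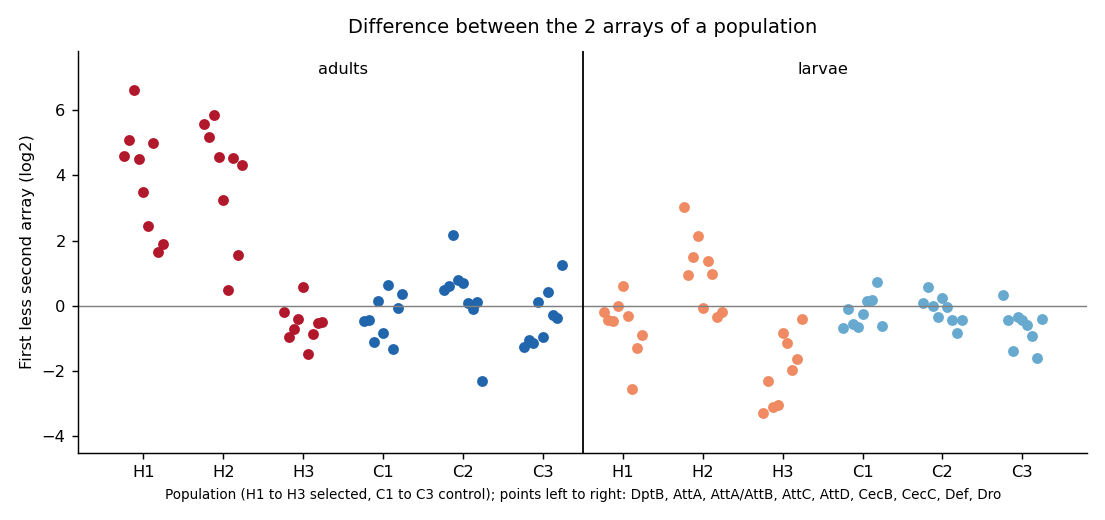
First less second array of each population (log2 of the signal), for adults and larvae; each point is a member. In adults of H1 and H2 all 9 points lie above 0, with a median fold of 22.7 and 23.0, while in H3 and the controls the points lie nearer 0; in larvae of H3 all 9 lie below 0.

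Among larvae no member was called between selected and control populations, where 1.65% of all probe sets were called. DptB came closest in the lower direction. Selected larvae had signals of 4561, 5249.6, 20472, 2533, 2117 and 20623, and control larvae had those given above, from 10265 to 32979. The signals of 4 of the 6 selected arrays lay below every control array and 2 lay within the control range. The log2 difference was -1.52 (SE 0.68, 95% interval -3.01 to -0.02, adjusted p = 0.302 from limma). It was the only member with an unadjusted p under 0.05 in the lower direction, which 10.4% of all probe sets had. DptB was also the only member whose 3 selected population means lay below all 3 control means, as 13.3% of probe sets did.

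The other larval differences were smaller or had wider spread. CecB spanned 337 to 1371 in selected and 747 to 2586 in control larvae (log2 difference -0.89, SE 0.42, adjusted p = 0.328), and CecC spanned 259.6 to 1739.7 in selected and 441 to 2269 in control larvae (-0.88, SE 0.61, adjusted p = 0.528). Each cecropin had 3 selected arrays below every control array. AttA, AttA/AttB and AttC had log2 differences of -0.16, -0.05 and -0.03, with 95% intervals of -1.28 to 0.97, -1.59 to 1.48 and -1.85 to 1.78. A change of over 2-fold in either direction lies inside the intervals of AttA/AttB and AttC, and one of over 2-fold lower inside that of AttA. After median centring all 3 turned positive, at 0.02, 0.13 and 0.15.

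AttD and Dro varied between the selected larval populations. AttD had signals of 1629 and 1075 in H1, 9084 and 9555 in H2 and 2480.5 and 4394 in H3, against 3269 to 5683 in control larvae. H1 lay below the control range and H2 above it, and the log2 difference was -0.25 (SE 0.52, adjusted p = 0.860). Dro had 53.0 and 98.6 in H1, 504 and 576 in H2 and 692 and 919.9 in H3, against 257 to 723 in control larvae, with a log2 difference of -0.47 (SE 0.69, adjusted p = 0.788). Def followed the order of populations seen in Dro, with H1 lowest and H3 highest. It had 341 and 842 in H1, 3004 and 3818 in H2 and 4729 and 14660.4 in H3 larvae, against 455 to 1630.1 in control larvae. Both H2 and H3 lay above every control array and H1 did not, and the log2 difference was 1.70 (SE 0.81, 95% interval -0.06 to 3.47, adjusted p = 0.326 from limma). Over all 9 larval members the median log2 difference was -0.25, beside -0.11 over all probe sets.

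The 2 arrays of a population also differed among larvae of H2 and H3. In H3 larvae the second array was the brighter for 9 of 9 members, by a median of 3.88-fold and up to 9.74-fold for DptB, and in H2 larvae the median difference was 1.96-fold, with the first array brighter for 6 of 9. The median was 1.38-fold in H1 larvae and 1.26-fold to 1.46-fold in control larvae. Larval serum and salivary glue genes, whose levels change within the third instar, summed to 472748 to 633876 in selected and 593321 to 714536 in control larvae. Blood cell markers summed to 24957 to 32212 in selected and 31653 to 40924 in control larvae. The part of either in the larval values was not tested.

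**Figure D5:**
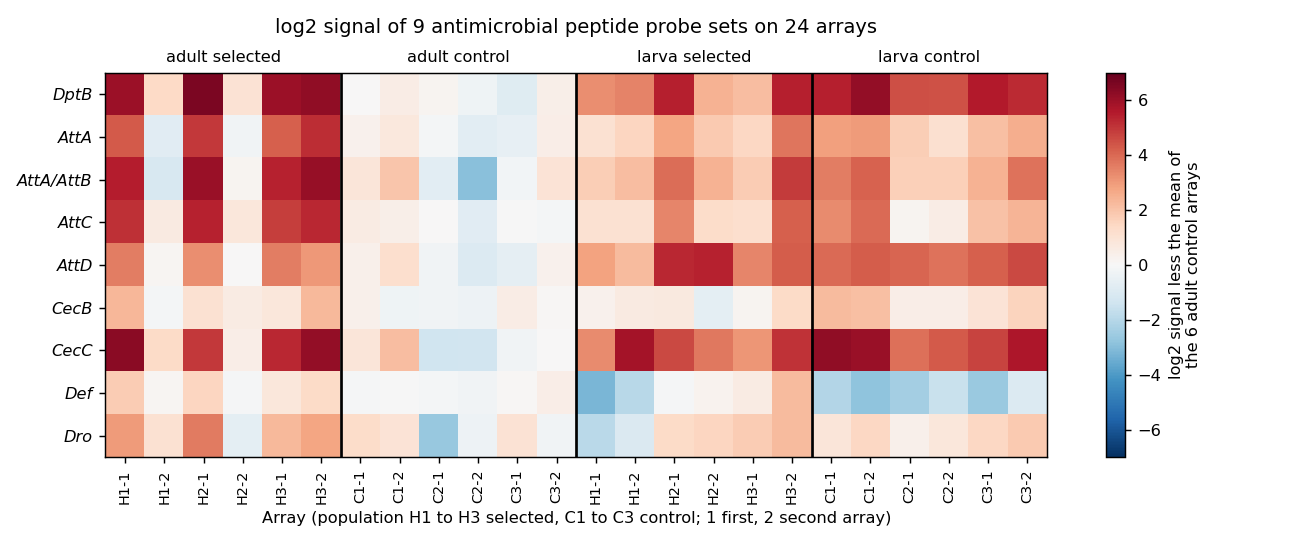
Log2 signal of each member (rows) on each array (columns), less that member's mean over the 6 adult control arrays; red is higher and blue lower than adult controls. The columns H1-2 and H2-2 among selected adults are pale beside the other 4 selected columns, and Def is blue in control larvae where the other rows are red or pale.

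The difference of selected from control populations itself differed between the stages for some members. The interaction of DptB, the adult log2 difference less the larval one, was 6.05 (SE 1.20, 95% interval 3.56 to 8.54, adjusted p = 0.0113 from limma). That of CecC was 4.97 (SE 1.24, 95% interval 2.39 to 7.54, adjusted p = 0.0403). These were the 2 of 9 members called, both toward higher in adults, which 1.01% of all probe sets were. At an unadjusted p under 0.05, 8 of 9 members were higher in adults relative to larvae, as were 11.8% of all probe sets. Nothing is read from these counts, because the study's list was drawn from the adult contrast that the interaction contains. CecB had an interaction of 2.03 (SE 0.57, adjusted p = 0.0608), AttC of 3.71 (SE 1.20, adjusted p = 0.104) and AttD of 2.52 (SE 0.89, adjusted p = 0.144). AttA had 3.07 (adjusted p = 0.169), AttA/AttB had 3.73 (adjusted p = 0.210) and Dro had 2.47 (adjusted p = 0.233). Def alone was negative, at -0.80 (SE 0.84, adjusted p = 0.653). The median interaction of the members was 3.07, beside 0.16 over all probe sets.

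Adult less larval population means separated selected from control populations in 7 of 9 members, all but AttD and Def. They did so for 11.9% of probe sets. For those 7 members the exact permutation p was 0.1, the smallest that 3 against 3 populations can give. This count also contains the contrast behind the study's list, and nothing is read from it. For DptB the adult less larval values were 0.32, -0.15 and 2.30 in H1, H2 and H3. In C1, C2 and C3 they were -5.51, -4.55 and -5.62. The call of DptB was lost without control population C1 (adjusted p = 0.0701) or C3 (0.0826), with population means (0.0548), and with the first or second arrays alone (0.0614 and 0.488). That of CecC was lost without any 1 population other than H2 (adjusted p between 0.0785 and 0.142). Quantile normalization (0.0537) and the floor at the 20th percentile (0.0580) removed it as well. It was also lost with population means and with the first or second arrays alone, where 0 members were called. With a block for each population and stage CecC was lost too (0.104), while DptB kept an adjusted p of 0.0428.

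The members varied together across arrays. Over the 12 adult arrays the 36 pairs of members had a median Pearson r of 0.91 (0.71 to 0.99) on the log2 scale. Over the 6 selected adult arrays it was 0.92, where the second arrays of H1 and H2 lay below the other 4. Rank correlations were lower, with a median Spearman rho of 0.78 over the 12 adult arrays. For the 6 selected adult arrays the median rho was 0.77, with pairs from 0.37. Over the 6 control adult arrays the median Pearson r was 0.44, with pairs from -0.53 to 0.97, and the median rho was 0.51. Over the 12 larval arrays the median r was 0.58 and the median rho 0.63. Over the 6 control larval arrays the 15 pairs that held none of Def, AttD and Dro had a median r of 0.94, while the 8 pairs with Def had a median of -0.03. Over the 6 selected larval arrays the 8 pairs with Def had a median of 0.63, from 0.10 with CecC to 0.97 with Dro, beside 0.59 for the pairs without Def. These r values describe arrays that share populations, and arrays of the 2 groups lie apart in adults, so no p is given.

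Of other genes, those most like the mean of the members over the 12 adult arrays were edin (r = 0.97), an immune-induced gene, Mtk (0.96), the antifungal peptide metchnikowin, lncRNA:CR32368 (0.96), CG14499 (0.95) and PGRP-SB1 (0.95), a peptidoglycan recognition protein. Within the 6 control adult arrays these r values were 0.37, 0.73, 0.95, 0.41 and 0.20. Over the 12 larval arrays the most like were Tep4 (0.87), a thioester-containing protein, CG2909 (0.85), CG7080 (0.84), CG3123 (0.83) and PolD3 (0.82). The 2 lists had no gene in common. Mtk spanned 2083 to 63796 in selected and 538 to 3659 in control adults, a log2 difference of 4.11 (SE 1.01, adjusted p = 0.139). Its interaction was 5.16 (SE 1.12, adjusted p = 0.0210). The antifungal peptide drosomycin (Drs), the usual readout of Toll, spanned 36877 to 61199 in selected and 30794 to 40074 in control adults, with a log2 difference of 0.29 (SE 0.15, adjusted p = 0.523) and an interaction of 0.13. Between stages Drs ran like Def, with adults higher than larvae by 1.84 in selected and 1.70 in control populations on the log2 scale (adjusted p = 0.00372 and 0.00691).

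The genes of the pathway itself were described from lists of recognition, signalling and restraining genes. Of 5 recognition genes 3 were measured, of 14 signalling genes 12, and of 11 genes that restrain the pathway 9; PGRP-LC was not measured under that name. None of these 24 was called between selected and control populations in adults or in larvae. Over all probe sets 0.357% were called in adults and 1.65% in larvae. A count of 0 among 24 is near those shares, so nothing is read from it. Their medians in adults were 0.11, 0.04 and 0.18 on the log2 scale for recognition, signalling and restraint. Rel spanned 4571 to 6206 in selected and 4500.4 to 5331 in control adults, a log2 difference of 0.13 (SE 0.11, adjusted p = 0.716), on the same arrays where the members differed by up to 4.53. For the interaction 1 of the 24 was called, beside 369 of all 18769 probe sets. It was zfh1, a repressor of immune genes, at 1.24 (SE 0.29, adjusted p = 0.0325 from limma).

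The stages were compared for the same genes. In control populations, where 51.0% of all probe sets were called in either direction, 3 of 3 recognition genes were lower in adults, 5 of the 12 signalling genes were higher and 5 lower, and of the 9 restraining genes 2 were higher and 5 lower. The largest difference was that of pirk, which blocks PGRP-LC and is itself induced by the pathway. It spanned 294 to 1339.8 in selected adults and 4931 to 17589.7 in selected larvae, and 350.3 to 965 in control adults and 12218 to 19679 in control larvae. The stages did not overlap in either type of population, and the log2 differences of adults from larvae were -3.69 in selected and -4.62 in control populations (SE 0.35 each). PGRP-LB, an enzyme that degrades peptidoglycan, had -1.24 in selected and -1.37 in control populations, and Rel had -0.91 in selected and -0.83 in control populations. All 6 of these differences passed the test. In adults, pirk and PGRP-LB overlapped between selected and control populations, with medians of 831 in selected and 673.5 in control adults for pirk and of 1585 in selected and 1303 in control adults for PGRP-LB; the interactions were 0.93 (adjusted p = 0.323) and 0.13 (adjusted p = 0.797).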

How the data were processed

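RNA of whole adults and larvae was measured on 24 arrays. The deposited values are linear microarray intensity values for 18952 probe sets. The methods name MBEI (dChip) and RMA, and the sources used here do not say which was used for them. Each array had a mean of 2500.1 once the top and bottom 2% were trimmed, which marks a scaling by the authors, and no further normalization was applied. Samples were grouped by their labels. Values below 1.0 were raised to it, log2 was taken, and 183 control probe sets were left out.

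Each stage was fitted by lmFit and eBayes of limma 3.58.1 (R 4.3.3; two-sided, Benjamini-Hochberg), with the population as a random block (correlation 0.133 in adults, 0.153 in larvae). The interaction and the stage differences came from 1 fit of the 24 arrays, blocked by population (correlation 0.0425). That fit treats the paired arrays of 1 stage as nearly independent, and in this respect is less strict than the fits by stage. It also uses 1 spread per probe set for all 4 groups. Its SEs and intervals therefore do not measure the spread of the 2 compared groups alone. For DptB the SD of log2 signal was 2.59 in selected adults, 1.435 in selected larvae, 0.508 in control adults and 0.643 in control larvae. The fits were tested on simulated data. The number of populations limits the precision, and p-values measure the spread between these samples, which may be partly technical. Alternatives were median centring, quantile normalization, a floor at the 20th percentile, a filter on dim probe sets, other blocks, population means, 1 array per population, populations left out and the methods' t-test. Members, lists and tests were chosen with earlier results of these data known. The named genes are all members, the 5 genes most like their mean in each stage, and genes of fixed pathway lists that include Rel, PGRP-LB and pirk. Names came from the platform annotation or, where it had none, from the study's list of changed probe sets. Marker lists for the female germ line and follicle and for the male accessory gland were also summed. The female list summed to 1422 to 1884 in selected and 1511 to 13584 in control larvae. In adults it summed to 248865 to 549328 in selected and 341314 to 497088 in control populations. The male list summed to 357 to 691 in selected and 139 to 960 in control larvae. The part of these genes in the larval and stage differences was not tested. No sequence is shown, and promoter and protein comparisons were not run. Tables and plots were made with Python 3.11.15, numpy 2.4.6, pandas 2.3.3, scipy 1.17.1 and matplotlib 3.10.9.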

Additional observations from a re-analysis of the deposited data

Results flagged for a closer look

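The difference of selected from control populations differed between adults and larvae for DptB, by 6.05 on the log2 scale (adults less larvae, adjusted p = 0.0113 from limma), and for CecC, by 4.97 (adjusted p = 0.0403). For DptB the adult difference was 4.53 and the larval one -1.52, and for CecC they were 4.09 and -0.88. Both genes were on the study's list, which was drawn from the adult contrast, so neither value is independent evidence. In the 36 groups of 6 arrays (9 members in 4 groups), 0 groups held a single array far from the rest by Dixon's criterion, where chance alone flags about 1 in 20; the paired low arrays of H1 and H2 adults are not of a kind that this criterion finds.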

How the results depend on the processing

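Of the 153 member values under alternatives for selected against control adults, 0 changed sign, and 6 passed the test that did not before. The count of called members was 3 with the first arrays alone and 3 with all 24 arrays in one fit. Calls over all probe sets, 67 in adults, were 14 with median centring, 181 with the floor at the 20th percentile, 126 with arrays as independent, 0 with population means, 6 and 0 with the first and second arrays alone, 226 with the methods' t-test after Benjamini-Hochberg (in place of their Bonferroni limit), 280 in the fit of all 24 arrays and 5 to 33 without 1 population. In larvae they numbered 309, and 191, 780, 598, 0, 0, 0, 908 and 881 under the same settings, and 61 to 318 without 1 population. The larval member count stayed at 0. Population numbers did not pair selected with control samples (correlations of deviations -0.084 to 0.117); with the number as a block, calls were 84 in adults and 967 in larvae, 0 of them members. A pooled t-test on log2 of the deposited values, at the methods' fold and Bonferroni limits, passed 0 probe sets in either stage. The study names MBEI and RMA and may have tested other values, so this count is not a repeat of its procedure.

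Larval values near 0 changed sign: AttA was 0.02 with median centring and 0.15 with second arrays, AttA/AttB 0.13 and 0.02 with median centring and quantile normalization, and AttC 0.15 and 0.03 with these and 0.04 with first arrays. Without 1 population the larval log2 difference ran from -0.56 to 0.23 for AttA, -0.66 to 0.42 for AttA/AttB, -0.89 to 0.75 for AttC, -0.97 to 0.44 for AttD and -1.14 to 0.59 for Dro.

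For the interaction, calls numbered 369, and 695 with the floor, 616 without dim probe sets, 108 with a block for each population and stage, 0 with population means, 3 and 0 with first and second arrays and 53 to 373 without 1 population. Members called were 1 with quantile normalization, 1 with the block for each population and stage, 0 with population means or either array alone and 0 to 3 without 1 population. Def ran from -1.92 to 0.00 without 1 population. In control populations the members called between stages were 3 with second arrays and 3 to 8 without 1 population. In selected populations they were 0 with the block for each population and stage or with population means, 5 with first arrays and 0 to 2 without 1 population. The shares of all probe sets called between stages under these settings are not given here, and nothing is read from these member counts. In selected populations DptB was -0.92, AttA -1.0 and AttA/AttB -1.45 with second arrays. CecC was -2.21 with them, 0.05 with the floor, 1.85 with first arrays and -1.09 to 0.46 without 1 population. The causes were not tested. Scaling moved the median of all probe sets and the split of calls. The interaction median was 0.16, against -0.10 with median centring and 0.01 with quantile normalization, and higher calls were 190 of 369, 42 of 328 and 101 of 328; in adults they were 15 of 67, 0 of 14 and 12 of 71, and in larvae 163 of 309, 164 of 191 and 188 of 294.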
